A study of Mus musculus with 16 samples.

Results

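Lhx1, Eomes, Shisa6 and Cxcr4 are genes that mark or maintain a subset of spermatogonial stem cells, which renew themselves and feed sperm production in the testis. Their levels were followed across a mouse microarray study of the transcription factor Etv5. All probe sets paired with exactly 1 of these genes in the platform annotation were taken, which gave 7 of 45037 probe sets and 4 of 18193 genes: 2 probe sets each for Lhx1, Eomes and Shisa6 and 1 for Cxcr4. The genes were picked with their Etv5 knockdown values known. Their differences between Etv5 knockdown and the other groups are therefore given as a description with standard errors and without a test.

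The study held 16 arrays in 4 groups of 4: knockdowns of Etv5, of Bcl6b and of Pou3f1 by short interfering RNA (siRNA), and a negative control siRNA. All 4 groups were long-term cultures set up from Thy1+ enriched germ cells on a C57BL\6 background, and all were treated with siRNA for 30 h. Every group was grown without serum with 20 ng/ml GDNF, 150 ng/ml soluble GFRA1 and 1 ng/ml FGF2, so no group lacked GDNF. The knockdown was transient, the age of the mice is not given in the labels, and the labels do not say whether the replicates were separate cultures. The p-values then measure only the spread between these samples, which may be technical. The number of arrays limits the precision.

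GDNF is a growth factor made by somatic cells of the testis that keeps spermatogonial stem cells self-renewing. It acts through the co-receptor GFRA1 and the receptor tyrosine kinase RET, and raises the transcription of Etv5, Bcl6b and Pou3f1 in these cells. Etv5 belongs to the ETS family, whose members bind DNA at sites with a GGAA core, and mice without it lose their spermatogonial stem cells with age. Lhx1 encodes a LIM homeodomain transcription factor, Eomes a T-box transcription factor and Shisa6 a transmembrane protein of the Shisa family. Cxcr4 encodes the receptor for the chemokine Cxcl12, a pair known for holding stem cells in their niche.

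The promoter windows are shown because the members were read against an ETS factor. Each window runs from 250 bases before to 50 bases after a RefSeq gene start in build GRCm38.p6, printed 5′ to 3′ on the strand of the gene, with each GGAA or its reverse complement TTCC in capitals. Lhx1 lies on the minus strand at chr11:84517975-84525534 and its window at chr11:84525485-84525784. Eomes lies on the plus strand at chr9:118478186-118486132 with its window at chr9:118477939-118478238. The start implied by the Eomes window lies a few bases inside the printed gene, and its match positions are counted from that start. Cxcr4 lies on the minus strand at chr1:128588199-128592299 with its window at chr1:128592250-128592549. Shisa6 lies at chr11:66211725-66527984. All 4 are protein-coding genes.
Lhx1: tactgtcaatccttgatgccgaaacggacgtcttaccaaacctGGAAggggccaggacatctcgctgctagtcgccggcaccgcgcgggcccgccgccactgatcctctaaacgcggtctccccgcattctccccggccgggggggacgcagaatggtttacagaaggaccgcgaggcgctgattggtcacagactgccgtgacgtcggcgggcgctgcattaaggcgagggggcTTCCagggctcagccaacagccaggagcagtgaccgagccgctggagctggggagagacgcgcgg
Eomes: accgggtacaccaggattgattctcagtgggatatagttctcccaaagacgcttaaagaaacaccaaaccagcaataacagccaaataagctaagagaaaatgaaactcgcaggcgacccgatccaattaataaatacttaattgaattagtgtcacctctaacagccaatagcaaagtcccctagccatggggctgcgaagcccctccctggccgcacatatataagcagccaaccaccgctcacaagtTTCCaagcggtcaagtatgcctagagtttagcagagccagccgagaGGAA
Cxcr4: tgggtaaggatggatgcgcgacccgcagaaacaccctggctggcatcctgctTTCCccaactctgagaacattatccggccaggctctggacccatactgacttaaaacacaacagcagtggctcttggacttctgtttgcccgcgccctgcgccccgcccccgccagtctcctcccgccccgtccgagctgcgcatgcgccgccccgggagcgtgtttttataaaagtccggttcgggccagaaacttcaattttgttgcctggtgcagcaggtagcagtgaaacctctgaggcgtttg

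The Lhx1 window held 2 matches to GGAA, at -207 on the strand of the gene and at -15 on the other strand, counted from the start. The Eomes window held 2, at 1 on the other strand and at 47 on the strand of the gene. The Cxcr4 window held 1, at -198 on the other strand. These letters are common, since 96% of the 32851 windows in the table held GGAA on either strand, with a median of 3.0 matches. The longer ETS forms CCGGAA and CCGGAAGT, each of which contains GGAA, were searched on both strands and occurred in none of the 3 windows, against 14.9% and 3.89% of all windows. The GC content was 65.7% for Lhx1, 47.3% for Eomes and 59.3% for Cxcr4.

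One array stood apart before any comparison was made. Bcl6b knockdown replicate 1 had a mean correlation of 0.975 with the other arrays over all probe sets, against 0.996 to 0.997 for each of the other 15. There the 3' end control probe set exceeded the 5' end one by 1.03 (log2) for Gapdh, where the other arrays gave -0.53 to -0.45. For Actb the same array gave 3.08, where the others gave 0.62 to 0.76. The signal on that array was thus weighted to the 3' end of these transcripts. The differences were therefore fitted over 16 arrays and again over 15, without that array. The median intensity was between 15.6 and 17.1 on all arrays. Of 10 measured germ cell markers, none lay below the array median on all 16 arrays, and their summed intensity was 45742 to 47177 in Etv5 knockdown, 38655 to 46081 in Bcl6b knockdown, 45576 to 48298 in Pou3f1 knockdown and 45466 to 46483 in control. The Bcl6b knockdown range of this sum, and of the later sums of markers, includes replicate 1.

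Etv5 itself was read by 3 probe sets. On the log2 scale, the brightest of them, 1428142_at, read 9.83, 9.83, 10.71 and 9.81 on the Etv5 knockdown arrays, 10.70, 11.68, 11.74 and 11.63 on the Bcl6b knockdown arrays, 11.58, 11.54, 11.69 and 11.52 on the Pou3f1 knockdown arrays and 11.49, 11.59, 11.55 and 11.51 on the control arrays. Etv5 was thus low on all 4 arrays of its own knockdown, with replicate 3 higher than the other 3. The Etv5 signal was also low on Bcl6b knockdown replicate 1, the array weighted to the 3' end. How far the signal there reflects the level of Etv5 was not tested. At this probe set that array was close to Etv5 knockdown replicate 3 (10.71 on Etv5 knockdown replicate 3 and 10.70 on Bcl6b knockdown replicate 1). At 1450082_s_at Etv5 knockdown replicate 3 read 8.72 and Bcl6b knockdown replicate 1 read 5.70, and at 1420998_at Etv5 knockdown replicate 3 read 7.99 and Bcl6b knockdown replicate 1 read 5.98. The log2 difference of Etv5 knockdown from control was -1.49 ± 0.22 (SE, n = 4 per group), with a limma adjusted p of 0.00505, and 3.23e-05 with 15 arrays. The dimmer probe sets 1450082_s_at and 1420998_at differed by -1.68 and -1.69, which did not pass the test with 16 arrays (limma adjusted p of 0.752 and 0.393) and passed it with 15 (limma adjusted p of 1.37e-04 and 3.31e-04). Bcl6b, a transcriptional repressor gene downstream of GDNF, was lower than in control by a log2 difference of -1.10 in Etv5 knockdown (limma adjusted p of 3.76e-04) and of -1.01 in its own knockdown (limma adjusted p of 7.8e-04), and both passed with 15 arrays. Pou3f1, a POU-domain transcription factor gene, was lower by -0.68 in its own knockdown at probe set 1460038_at (limma adjusted p of 0.0042). Its other probe set, 1422068_at, differed by -0.84, which did not pass with 16 arrays (limma adjusted p of 0.208) and passed with 15 (limma adjusted p of 0.0024).

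All 4 genes were lower in Etv5 knockdown than in control, by the most in Lhx1. At 5 of the 7 probe sets, all 4 Etv5 knockdown arrays lay below all 4 control arrays. Over all 45037 probe sets this held for 4.37%, and the limma fit called 0.415% changed in either direction and 0.104% lower. Nothing is read from these shares, since the genes were chosen on this contrast. Lower signal from fewer cells of a type and from less RNA per cell cannot be told apart in these bulk samples.

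Lhx1 was the gene with the largest difference. The probe set 1450428_at read 6.17, 6.35, 6.78 and 6.02 on the Etv5 knockdown arrays, 8.76, 7.73, 7.84 and 7.70 on the Bcl6b knockdown arrays, 7.74, 7.94, 7.91 and 7.60 on the Pou3f1 knockdown arrays and 7.70, 7.51, 7.67 and 7.77 on the control arrays, as log2(intensity + 1). The Etv5 knockdown arrays were the 4 lowest of the 16, and the highest array was Bcl6b knockdown replicate 1. The mean intensity was 81.1 ± 19.9 in Etv5 knockdown, 269 ± 108 in Bcl6b knockdown, 223 ± 23.6 in Pou3f1 knockdown and 202 ± 15.5 in control (SD, n = 4 each), and 215 ± 10.8 in the 3 Bcl6b knockdown arrays without replicate 1. The log2 difference of Etv5 knockdown from control was -1.33 ± 0.21 (SE), or 2.51-fold lower, with an SE of 0.13 in the fit of 15 arrays.

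The other Lhx1 probe set, 1421951_at, gave the same picture at a dimmer signal. It read 5.07, 4.98, 5.66 and 5.36 on the Etv5 knockdown arrays, 7.66, 6.32, 6.54 and 6.49 on the Bcl6b knockdown arrays, 6.57, 6.73, 6.45 and 6.32 on the Pou3f1 knockdown arrays and 6.69, 6.70, 6.40 and 6.44 on the control arrays. Again the 4 Etv5 knockdown arrays lay below the other 12, with replicate 3 the highest of them. The log2 difference from control was -1.29 ± 0.24 (SE), or 2.44-fold lower, with an SE of 0.14 over 15 arrays.

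Eomes, which in mouse testis marks a small fraction of undifferentiated spermatogonia, was read by a pair of probe sets of about the same brightness. The first, 1426001_at, read 6.28, 6.47, 6.80 and 6.62 on the Etv5 knockdown arrays, 7.69, 6.95, 7.04 and 7.05 on the Bcl6b knockdown arrays, 7.13, 7.13, 7.25 and 7.00 on the Pou3f1 knockdown arrays and 7.05, 7.18, 6.69 and 6.90 on the control arrays. Here Etv5 knockdown replicate 3 lay above control replicate 3, so the groups overlapped. The mean intensity was 93.0 ± 14.3 in Etv5 knockdown, 148 ± 38.7 in Bcl6b knockdown, 139 ± 10.3 in Pou3f1 knockdown and 124 ± 18.1 in control (SD, n = 4 each), and 128 ± 5.04 in Bcl6b knockdown without replicate 1. For Etv5 knockdown minus control the log2 difference was -0.41 ± 0.16 (SE), 1.33-fold lower, with an SE of 0.11 over 15 arrays.

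At the second Eomes probe set, 1435172_at, the difference was larger and the groups did not overlap. It read 5.95, 6.27, 6.37 and 6.15 on the Etv5 knockdown arrays, 8.10, 6.88, 7.06 and 6.86 on the Bcl6b knockdown arrays, 7.00, 6.90, 7.07 and 6.92 on the Pou3f1 knockdown arrays and 6.90, 6.99, 6.89 and 7.13 on the control arrays. The log2 difference of Etv5 knockdown from control was -0.79 ± 0.21 (SE), 1.73-fold lower, and the SE was 0.090 without Bcl6b knockdown replicate 1. The 2 probe sets of Eomes thus shared the direction but not the size.

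Shisa6, which in mouse testis marks a subset of undifferentiated spermatogonia and is known as an inhibitor of Wnt signalling, was dim. Its brighter probe set, 1455512_at, read 3.53, 3.93, 4.06 and 3.46 on the Etv5 knockdown arrays, 5.35, 4.17, 4.71 and 4.44 on the Bcl6b knockdown arrays, 4.73, 4.84, 4.75 and 4.84 on the Pou3f1 knockdown arrays and 4.39, 4.52, 4.49 and 4.50 on the control arrays. All 4 Etv5 knockdown arrays were below all 4 control arrays, and all 4 Pou3f1 knockdown arrays were above them. The mean intensity was 12.6 ± 2.75 in Etv5 knockdown, 25.6 ± 9.95 in Bcl6b knockdown, 26.7 ± 1.14 in Pou3f1 knockdown and 21.3 ± 0.886 in control (SD, n = 4 each), and 20.9 ± 4.10 in Bcl6b knockdown without replicate 1. It lay above the array median on 0 of 4 Etv5 knockdown arrays and on 4 of 4 control arrays. The log2 difference of Etv5 knockdown from control was -0.73 ± 0.20 (SE, 0.13 over 15 arrays), and -0.39 with 16 rather than 1 added before the log2, so its size depends on how dim values are treated.

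The second Shisa6 probe set, 1441785_at, was below the array median on all 16 arrays. It read 2.84, 2.85, 2.92 and 2.82 on the Etv5 knockdown arrays, 2.88, 2.87, 2.90 and 2.92 on the Bcl6b knockdown arrays, 3.09, 2.92, 2.95 and 2.97 on the Pou3f1 knockdown arrays and 2.91, 2.99, 3.05 and 3.16 on the control arrays. The values of the groups overlapped and lay near the floor of the signal, and the log2 difference of Etv5 knockdown from control was -0.17 ± 0.047 (SE). This probe set shows little of the Shisa6 level on any array.

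Cxcr4 had 1 probe set, 1448710_at. It read 5.74, 6.66, 6.77 and 6.52 on the Etv5 knockdown arrays, 7.86, 7.40, 7.18 and 7.40 on the Bcl6b knockdown arrays, 7.27, 7.42, 6.96 and 7.14 on the Pou3f1 knockdown arrays and 7.43, 7.41, 6.99 and 7.15 on the control arrays. Etv5 knockdown replicate 1 was the lowest of all arrays, and the 4 Etv5 knockdown arrays lay below the other 12. The mean intensity was 87.9 ± 24.8 in Etv5 knockdown, 178 ± 37.6 in Bcl6b knockdown, 147 ± 19.7 in Pou3f1 knockdown and 152 ± 22.2 in control (SD, n = 4 each), and 160 ± 13.6 in Bcl6b knockdown without replicate 1. Etv5 knockdown minus control gave a log2 difference of -0.82 ± 0.21 (SE), 1.77-fold lower, with an SE of 0.18 over 15 arrays. It ranged from -0.94 to -0.59 when each array was left out in turn.

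**Figure D1:**
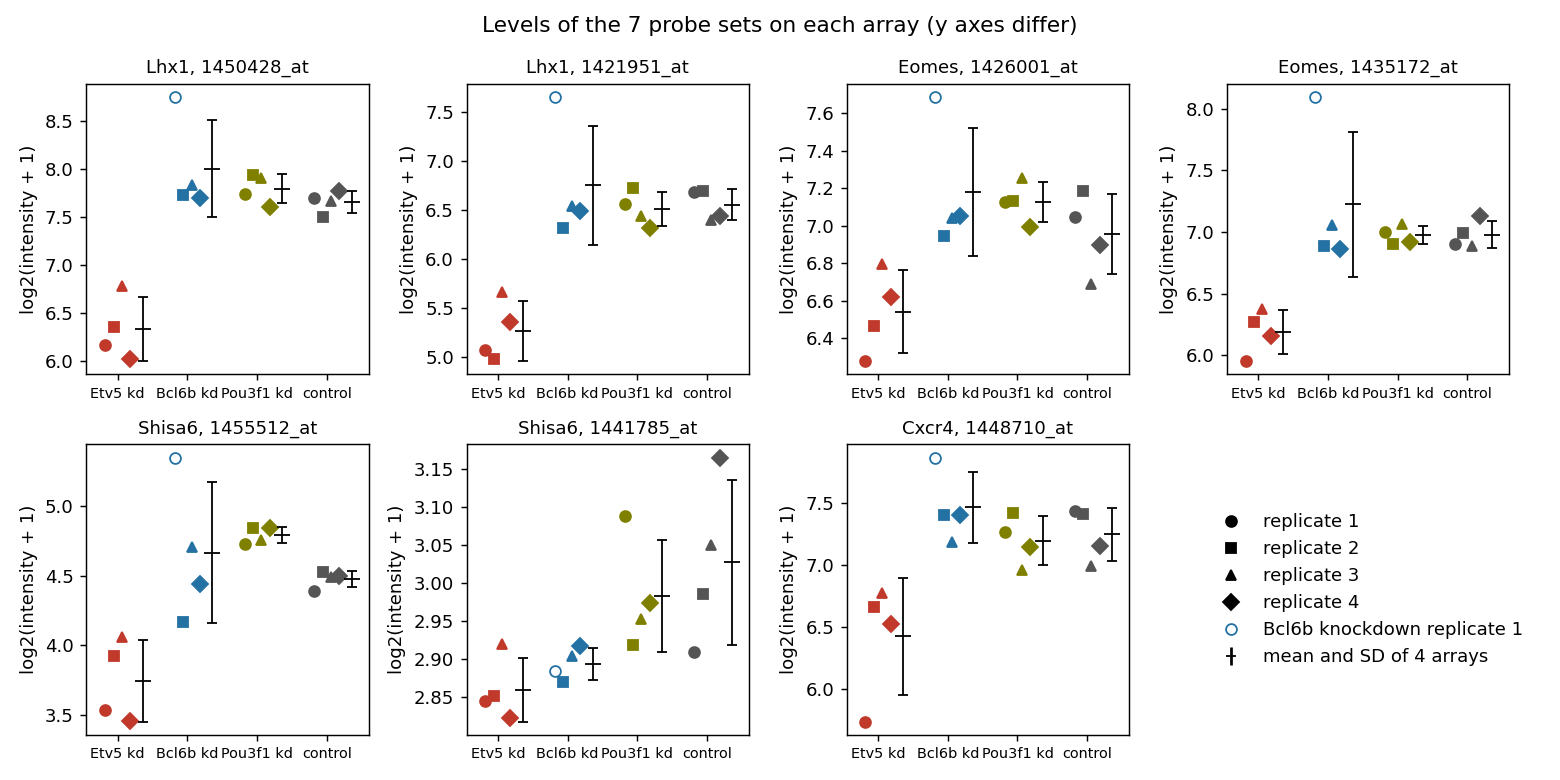
Level of each of the 7 probe sets on each array as log2(intensity + 1), by group (kd, knockdown), with the mean and SD of the 4 arrays of a group as bars and Bcl6b knockdown replicate 1 as a hollow circle. The Etv5 knockdown mean is the lowest of the 4 in every panel, and the hollow circle lies highest in 6 of the 7.

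Etv5 knockdown had the lowest mean at all 7 probe sets. At the Lhx1, Eomes and Cxcr4 probe sets the arrays of the other 3 groups overlapped, and the Bcl6b knockdown mean was at the top with its replicate 1 included. Pou3f1 knockdown stood above control at Lhx1 1450428_at and Eomes 1426001_at, and below it at Lhx1 1421951_at, Eomes 1435172_at and Cxcr4. Without that array the mean log2 level of Lhx1 1450428_at was 6.33 in Etv5 knockdown, 7.76 in Bcl6b knockdown, 7.80 in Pou3f1 knockdown and 7.66 in control. For Shisa6 1455512_at the mean was 4.79 in Pou3f1 knockdown, above the 4.44 of Bcl6b knockdown without replicate 1 and the 4.48 of control.

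Set against the other knockdowns, the genes were lower in Etv5 knockdown as well. At 6 of the 7 probe sets the Etv5 knockdown arrays lay below all Bcl6b knockdown arrays, as did 2.56% of all probe sets, or 4.2% without Bcl6b knockdown replicate 1. The same 6 lay below all Pou3f1 knockdown arrays, as did 2.74% of all probe sets. These comparisons share the Etv5 knockdown arrays with the one against control and are likewise descriptions.

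The log2 difference of Etv5 knockdown from Bcl6b knockdown was -1.68 and -1.49 at the Lhx1 probe sets, and -1.43 and -1.18 without Bcl6b knockdown replicate 1. For Eomes it was -0.64 at 1426001_at and -1.04 at 1435172_at, and -0.47 and -0.75 without that array. For Shisa6 1455512_at it was -0.92, and -0.69 without it. For Cxcr4 it was -1.04, and -0.91 without it. The single array thus enlarged every one of these 6 differences. From Pou3f1 knockdown, the log2 difference was -1.47 and -1.25 for Lhx1, -0.59 and -0.79 for Eomes, -1.05 for Shisa6 1455512_at and -0.77 for Cxcr4.

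Bcl6b knockdown against control was not itself used in choosing the genes and was tested. It shares the control arrays with the Etv5 knockdown contrast known at that choice, so the test is not independent of the choice. No member passed: 0 of 7 probe sets were called by limma at an adjusted p under 0.05, where 1.28% of all probe sets were, and 0 of 7 with 15 arrays, where 4.82% were. The lowest unadjusted limma p with 16 arrays was 0.0122 (adjusted 0.216), at the dim Shisa6 1441785_at, with a log2 difference of -0.13. Lhx1 1450428_at differed by 0.35, with a 95% interval of -0.10 to 0.79 and a limma adjusted p of 0.537, and by 0.10 (-0.20 to 0.39) without Bcl6b knockdown replicate 1.

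The other members are given in the same way. The log2 difference was 0.20 for Lhx1 1421951_at (limma adjusted p of 0.729) and -0.10 without replicate 1, with a 95% interval of -0.42 to 0.21. For Eomes it was 0.23 and 0.25 (limma adjusted p of 0.594 and 0.662), and 0.06 (-0.20 to 0.32) and -0.04 (-0.25 to 0.17) without that array. Shisa6 1455512_at differed by 0.19 (limma adjusted p of 0.715), and by -0.04 (-0.34 to 0.26) without it. Cxcr4 differed by 0.22 (limma adjusted p of 0.699), and by 0.08 (-0.34 to 0.51) without it. In the fit of 15 arrays, the upper and lower bounds of these 6 intervals lay within 0.51 of zero.

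Pou3f1 knockdown against control was tested in the same way and shares the same control arrays. Of the 7 probe sets 0 were called, where 0.449% of all were, and 0 with 15 arrays, where 3.07% were. With 16 arrays the lowest unadjusted limma p was 0.132, at Shisa6 1455512_at. The log2 difference was 0.14 (95% interval -0.31 to 0.59) for Lhx1 1450428_at, -0.04 (-0.56 to 0.47) for 1421951_at, 0.17 (-0.17 to 0.52) and -0.00 (-0.45 to 0.45) for Eomes 1426001_at and 1435172_at, and -0.05 (-0.50 to 0.39) for Cxcr4, with limma adjusted p from 0.552 to 0.997. The fit of 15 arrays leaves these differences as they are and gives limma adjusted p from 0.28 to 0.984.

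Shisa6 1455512_at was the member furthest from control in Pou3f1 knockdown. All 4 knockdown arrays were above all 4 control arrays, as they were for 4.59% of all probe sets, and the log2 difference was 0.31 (95% interval -0.11 to 0.73, limma adjusted p of 0.333). Without Bcl6b knockdown replicate 1, which enters only through the spread, the interval was 0.04 to 0.59 and the limma p 0.0285, adjusted 0.212. The difference did not pass the test in either fit. The dim Shisa6 1441785_at differed by -0.04 (limma adjusted p of 0.611).

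**Figure D2:**
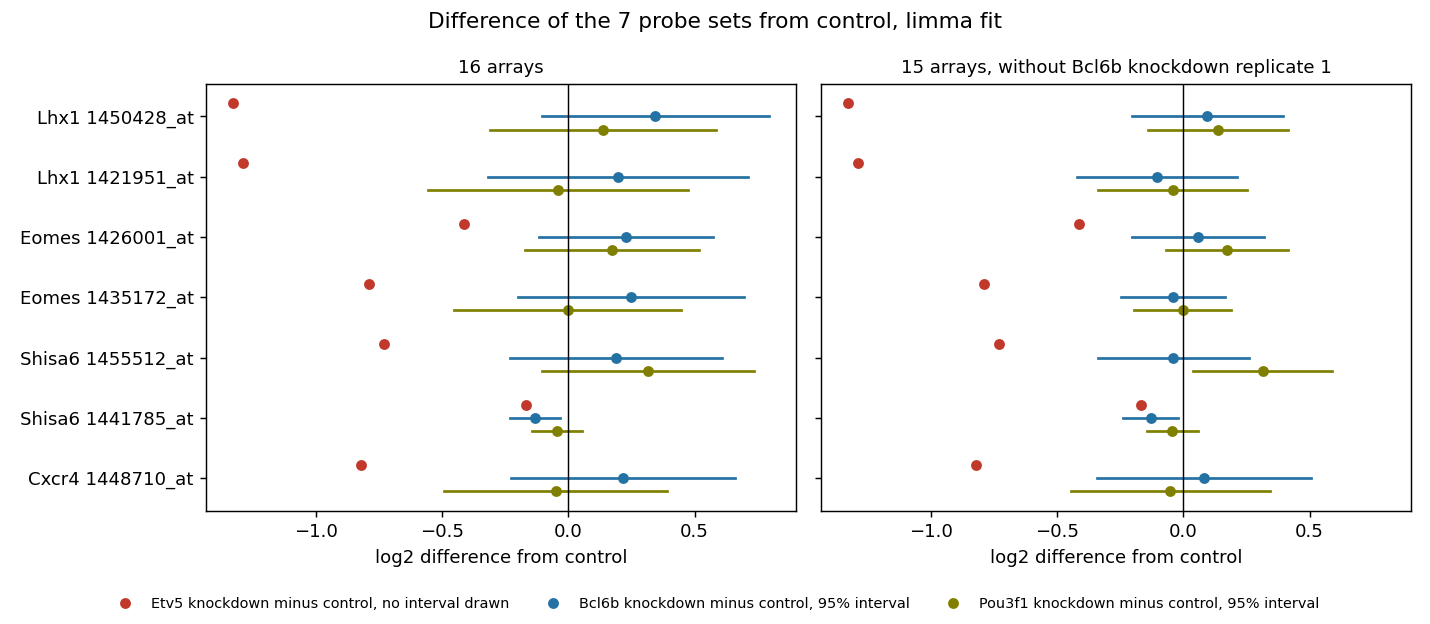
Log2 difference of each knockdown from control at the 7 probe sets, from the limma fit of 16 arrays (left) and of 15 arrays without Bcl6b knockdown replicate 1 (right), with 95% intervals as lines for the Bcl6b and Pou3f1 knockdowns only. The Etv5 knockdown points lie between -1.33 and -0.17, and the Bcl6b knockdown points of the 6 brighter probe sets lie closer to 0 in the right panel.

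Within the Etv5 knockdown group, the array with the weakest lowering of Etv5 also had the highest level of every member. Etv5 at 1428142_at was 0.885 higher on replicate 3 than on the mean of the other 3 arrays, on the log2 scale, and 1.14 and 1.16 higher at the other Etv5 probe sets. The members were higher on replicate 3 by 0.60 and 0.52 for Lhx1, 0.34 and 0.25 for Eomes, 0.42 and 0.080 for Shisa6 and 0.46 for Cxcr4. Bcl6b was 0.546 higher there, and Pou3f1 was 0.031 higher at 1460038_at and 0.214 higher at 1422068_at.

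Replicate 3 was thus the highest of the 4 Etv5 knockdown arrays in 7 of 7 member probe sets, which belong to 4 genes. It was the highest in 34.9% of all probe sets, and in 62 of the 116 (53.4%) whose mean was at least 0.5 lower in Etv5 knockdown than in control. Those 116 include members and the Etv5 and Bcl6b probe sets, while Eomes 1426001_at and Shisa6 1441785_at fall short of the 0.5. On replicate 3, Lhx1 1450428_at was lower than the control mean by a log2 difference of -0.88, against -1.64 to -1.31 on the other 3. Cxcr4 was lower by -0.48 there, against -1.51 to -0.58. This is a single array of the group whose low values were known when the members were chosen, so nothing is read from it. The order among the other 3 differed from member to member. Replicate 4 was lowest for Lhx1 1450428_at and Shisa6 1455512_at, replicate 2 for Lhx1 1421951_at, and replicate 1 for Eomes and Cxcr4.

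**Figure D3:**
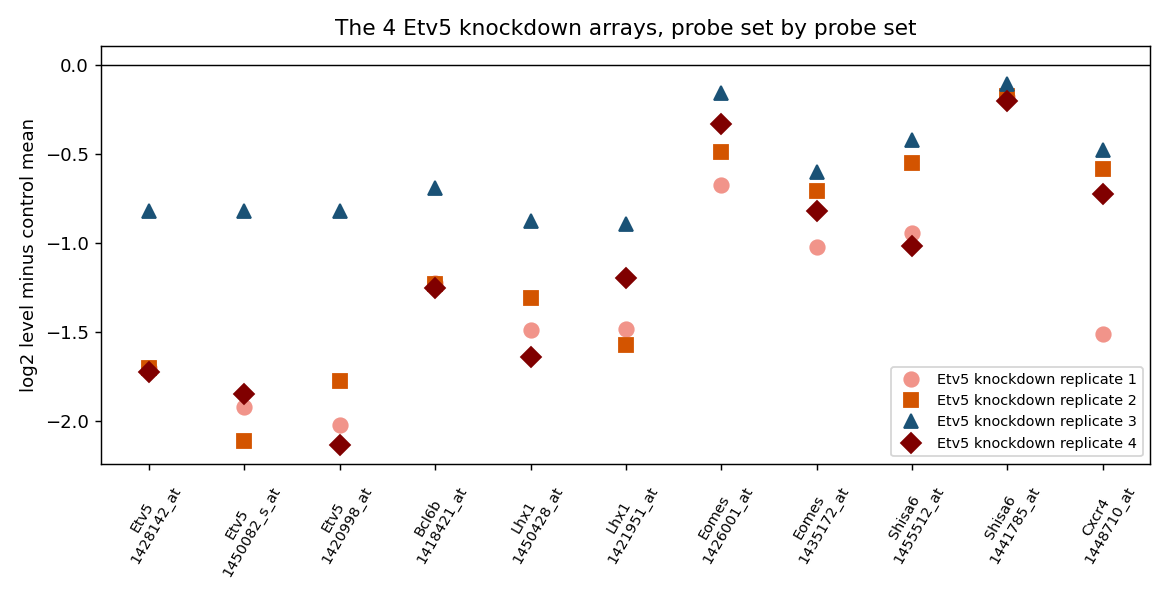
Log2 level on each Etv5 knockdown array minus the control mean, for the 3 Etv5 probe sets, Bcl6b and the 7 member probe sets (y axis), with 1 marker per replicate. Replicate 3 (triangle) is the highest marker in every column, at -0.82 for Etv5 1428142_at against -1.72 to -1.70 on the other 3 arrays.

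On Bcl6b knockdown replicate 1 the signals ran the other way. The Etv5 signal was low there, with a log2 difference of -0.987 from the mean of the other 3 Bcl6b knockdown arrays at 1428142_at, and the member signals were high. The members exceeded the other Bcl6b knockdown arrays by 1.00 and 1.21 for Lhx1, 0.68 and 1.16 for Eomes, 0.91 for Shisa6 1455512_at and 0.54 for Cxcr4. The dim Shisa6 1441785_at differed by -0.012. This array was the highest of all 16 in 6 of 7 member probe sets, and in 26.7% of all probe sets; it was the lowest in 16.7%. The part of the 3' weighting in these values was not tested. At the dimmer Etv5 probe sets the same array differed from the other 3 Bcl6b knockdown arrays by -4.02 and -2.98. The Etv5 probe sets thus disagreed in size there, and no single Etv5 level can be read from this array.

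The level of each gene was then set against the Etv5 level per array. The 4 Etv5 knockdown arrays form a cluster of their own, so the relation was computed over the other 12 arrays only, for the probe set of each gene with the highest mean over all 16 arrays (1426001_at for Eomes) against Etv5 1428142_at, as 4 relations adjusted together. Pearson's r was -0.852 for Lhx1, -0.709 for Eomes, -0.717 for Shisa6 and -0.723 for Cxcr4, each with an adjusted two-sided permutation p of 0.0705. The unadjusted permutation p was 0.0705, 0.0664, 0.0359 and 0.028. Taken as deviations from the group means over the same 12 arrays, r was -0.896, -0.757, -0.852 and -0.72, and all 4 passed, with adjusted permutation p of 0.00857, 0.013, 0.00857 and 0.00857. Centring on means that include Bcl6b knockdown replicate 1 shifts the other Bcl6b knockdown arrays away from it in Etv5 and in each gene. Nothing is therefore read from the p-values of these deviations. For the levels, Spearman's rho was -0.014, 0, -0.238 and -0.413 for these genes, with adjusted permutation p from 0.736 to 1.

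These values of r rested on Bcl6b knockdown replicate 1, whether taken as levels or as deviations. Over the 11 arrays without it, r was 0.325 for Lhx1, 0.277 for Eomes, -0.0524 for Shisa6 and -0.144 for Cxcr4, with adjusted permutation p from 0.827 to 0.876 and rho from -0.236 to 0.3. Leaving out the 2 of the 12 arrays farthest from the median Etv5 level gave 0.216, 0.337, -0.225 and -0.0866. With the dimmer Etv5 probe sets, the r over 11 arrays lay between -0.221 (Lhx1 against 1420998_at) and 0.598 (Eomes against 1420998_at, permutation p of 0.0602, adjusted 0.241). Spearman's rho for that last pair was 0.718 (permutation p of 0.0165, adjusted 0.0659), and its r was 0.257 without the 2 arrays farthest from the median. The Etv5 level of those 11 arrays spans 11.49 to 11.74 at 1428142_at and 8.50 to 9.05 at 1420998_at on the log2 scale, and no relation of levels passed the adjusted test there. Deviations from group means over the 11 arrays gave r against 1428142_at of 0.229 for Lhx1, 0.372 for Eomes, 0.219 for Shisa6 and -0.514 for Cxcr4. None of these passed, with adjusted permutation p from 0.423 to 0.513.

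**Figure D4:**
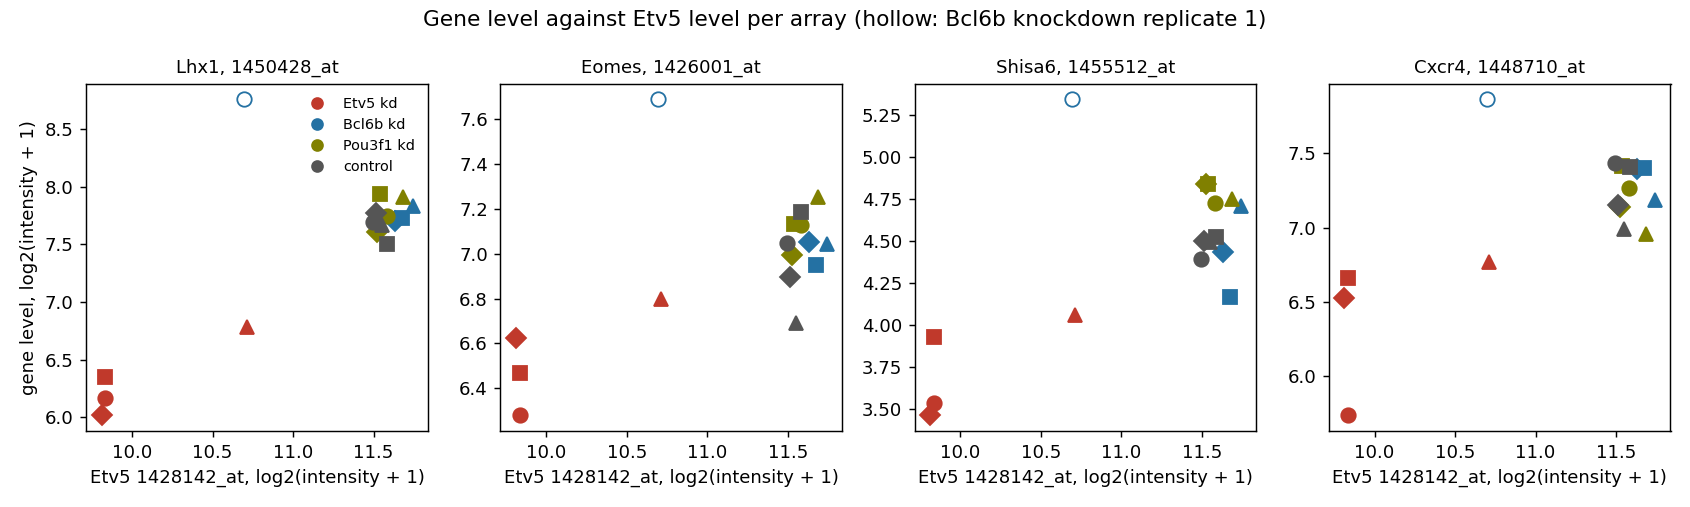
Level of 1 probe set of each gene, the one with the highest mean over 16 arrays (y axis), against Etv5 1428142_at (x axis), both as log2(intensity + 1), with 1 point per array and markers for replicates 1 to 4 as circle, square, triangle and diamond. The Etv5 knockdown arrays lie at the lower left, 11 arrays lie together between 11.49 and 11.74, and the hollow circle, Bcl6b knockdown replicate 1, lies at an Etv5 level of 10.70 with the highest level of each gene.

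The genes whose levels ran most like each member were ranked among 11144 others by the lower of Pearson's r over 16 arrays and over 15. These values are a description: the arrays share the Etv5 knockdown step, and Bcl6b knockdown replicate 1 adds to r over 16. Cd93, a transmembrane glycoprotein gene, stood among the 5 named for all 4 genes, with r over 16 arrays of 0.964 with Lhx1, 0.865 with Eomes, 0.941 with Shisa6 and 0.866 with Cxcr4. After Cd93, Lhx1 ran most like Plvap (0.954), Ramp2 (0.952), Tmem132e (0.938) and Arhgap31 (0.937).

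Eomes ran most like Robo1 (r of 0.919 over 16 arrays), Hoxb5 (0.873) and Rasgrp2 (0.918), and like Zc3hav1l (0.912). Shisa6 ran most like Cd93, Rhbdl3 (0.954), Lhx1 (0.935), Car6 (0.917) and Ramp2 (0.895). Cxcr4 ran most like Chga (0.891), Plvap (0.875), Cd93, Eomes (0.870) and Lfng (0.873). Lhx1 was thus among the 5 named for Shisa6, and Eomes among those for Cxcr4. The level of Etv5 itself had an r over 16 arrays of 0.773 with Lhx1, 0.587 with Eomes, 0.671 with Shisa6 and 0.683 with Cxcr4, and over 15 arrays of 0.982, 0.860, 0.884 and 0.844. Etv5 ranked 94, 232, 180 and 87 among the 11144 genes for these members. Its rank was set by r over 16 arrays, which includes Bcl6b knockdown replicate 1, where no single Etv5 level can be read. Over 15 arrays Etv5 ran more like Lhx1 (0.982) than any of the 5 named genes did, of which Cd93 was highest (0.972). For Eomes, Shisa6 and Cxcr4 it lay below all 5 named genes over 15 arrays too. These r include the Etv5 knockdown arrays, whose low values were known when the members were chosen, so nothing is read from them.

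Other genes of the same pathways were taken as lists, with the 4 members and the target of each knockdown left out, and 1 probe set per gene. The lists were chosen with earlier results of these data known, so their counts and p-values are a description and not independent evidence. Among the 11145 genes bright enough to be tested, limma called 2.09% in Etv5 knockdown (0.781% lower and 1.31% higher), 3.21% in Bcl6b knockdown and 2.25% in Pou3f1 knockdown. With 15 arrays it called 9.52%, 10.9% and 11.4%. The median log2 difference over all these genes was -0.026, -0.010 and -0.024 in the 3 knockdowns, and -0.042 in Bcl6b knockdown with 15 arrays.

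Of other markers of the stem cell subset, 3 of 19 tested fell in Etv5 knockdown and 0 rose, with a median log2 difference of -0.137. They were Bcl6b (-1.10, limma adjusted p of 6.21e-05), Plvap, which marks a subset of spermatogonia as well as endothelium (-1.30, limma adjusted p of 0.0014), and the forkhead gene Foxc2 (-0.65, limma adjusted p of 0.00271). With 15 arrays 6 fell, among them Id4 (-0.336, limma adjusted p of 0.00266), and 1 rose, the transcription factor gene Zbtb16 (0.25). With 16 arrays neither Id4 nor Zbtb16 passed (limma adjusted p of 0.253 and 0.335). With the mean over probe sets Id4 passed (-0.408, limma adjusted p of 0.0181) and Zbtb16 did not (0.197, limma adjusted p of 0.802). In Bcl6b knockdown 1 of 19 was called, a rise of the GDNF receptor gene Ret by 0.35 (limma adjusted p of 0.00509), and in Pou3f1 knockdown 1 of 20, again Ret, by 0.38 (limma adjusted p of 0.0035). With 15 arrays both Ret calls held, at 0.296 in Bcl6b knockdown (limma adjusted p of 0.00103) and 0.383 in Pou3f1 knockdown (limma adjusted p of 3.27e-05). Both Ret calls were lost when the probe sets of a gene were averaged, which was fitted on all 16 arrays only. The averages gave -0.059 in Bcl6b knockdown (limma adjusted p of 0.752) and 0.168 in Pou3f1 knockdown (limma adjusted p of 0.617). The summed intensity of the 23 measured markers was 22196 to 25555 in Etv5 knockdown, 23615 to 26713 in Bcl6b knockdown, 26209 to 28905 in Pou3f1 knockdown and 26155 to 27284 in control.

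Of genes that respond to GDNF, 3 of 15 tested fell in Etv5 knockdown, and their median log2 difference was -0.115. Besides Bcl6b these were the neurofilament gene Nefm (-0.56, limma adjusted p of 0.00439) and the zinc finger gene Egr2 (-0.37, limma adjusted p of 0.0267). With 15 arrays 6 fell and 1 rose. In Bcl6b knockdown 1 of 15 rose, again Ret at its brightest probe set, and 3 with 15 arrays. In Pou3f1 knockdown 3 of 15 rose: Ret at that probe set, the connexin gene Gja1 (0.40, limma adjusted p of 0.0143) and the collagen gene Col11a1 (0.71, limma adjusted p of 0.0318).

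The partners of the members mostly did not pass the test. Of the Cxcr4 pathway, with the ligand gene Cxcl12 and the G protein and arrestin genes, 0 of 10 tested were called by limma in any of the 3 knockdowns; with 15 arrays 1 fell in Bcl6b knockdown, Cxcl12 by -0.12, and 1 rose in Pou3f1 knockdown, Gnai1 by 0.27. Of LIM homeobox genes and their partners 0 of 10 were called in any knockdown; with 15 arrays Lmo4 rose by 0.24 in Etv5 knockdown, and in Pou3f1 knockdown Ssbp2 rose by 0.13 while Rlim fell by 0.21. Of other T-box genes 0 of 4 tested were called, and of other Shisa family genes 0 of 5, with 16 and with 15 arrays.

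Of Wnt pathway targets, the cyclin gene Ccnd1 fell in all 3 knockdowns, by log2 differences of -0.34, -0.59 and -0.35 in Etv5, Bcl6b and Pou3f1 knockdown, and was the one called of 8 tested. The call in Etv5 knockdown was lost with the mean over its probe sets (-0.253, limma adjusted p of 0.0925). The 3 comparisons share the control arrays. Of genes of differentiating spermatogonia 2 of 12 rose in Etv5 knockdown: Sohlh1 by 0.61 (limma adjusted p of 0.00116) and Sox3 by 0.74 (limma adjusted p of 0.017), both transcription factor genes, with a median of 0.159 over the list. With 15 arrays 4 rose, also Neurog3 (0.42) and the receptor gene Kit (0.19). In the other knockdowns 0 of 12 were called with 16 arrays.

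Markers of other cell types were read beside these results. Of 15 endothelial markers, 11 were below the array median on all 16 arrays, among them Pecam1, Cdh5, Kdr, Tek and Tie1, and of the 4 tested Plvap and Ramp2 (-1.09, limma adjusted p of 6.29e-04) fell and Erg (0.43, limma adjusted p of 0.0332) rose in Etv5 knockdown. Their summed intensity was 766 to 885 in Etv5 knockdown, 912 to 1301 in Bcl6b knockdown, 874 to 980 in Pou3f1 knockdown and 826 to 908 in control. The endothelial marker Egfl7 had a mean intensity of 405 in Bcl6b knockdown with replicate 1 and 339 without it. Of 11 macrophage markers, 4 were below the median on all arrays (Adgre1, Itgam, Cx3cr1 and Aif1), and 1 of 7 tested fell in Etv5 knockdown, the mannose receptor gene Mrc1 (-1.31, limma adjusted p of 0.00189). Their sum was 573 to 636 in Etv5 knockdown, 586 to 835 in Bcl6b knockdown, 603 to 742 in Pou3f1 knockdown and 609 to 702 in control.

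All 12 measured fibroblast and feeder markers were above the median on at least 1 array. Their summed intensity was higher in Etv5 knockdown, at 186467 to 195252, than in control, at 177950 to 179513, and was 178593 to 189318 in Bcl6b knockdown and 180689 to 186525 in Pou3f1 knockdown. The filament gene Vim was the one of 12 called in each knockdown, a rise of 0.33, 0.29 and 0.35. Its mean intensity was 41340 in Etv5 knockdown and 32920 in control, so it made up much of the gap in the sum. The median log2 difference over the 12 genes was 0.027 in Etv5 knockdown. With 15 arrays 4 of 12 rose and 0 fell in Etv5 knockdown: Vim, Postn (0.19), Pdgfrb (0.24) and Pdgfra (0.12). In the same fit 2 rose in Bcl6b knockdown, and 2 rose and 2 fell in Pou3f1 knockdown. Of 8 Sertoli cell markers 6 were below the median on all arrays, 0 of the 2 tested were called, and their sum was 1878 to 1967 in Etv5 knockdown, 1925 to 2029 in Bcl6b knockdown, 1883 to 2190 in Pou3f1 knockdown and 2114 to 2235 in control. Of germ cell markers 0 of 10 were called with 16 arrays in any knockdown; with 15 arrays 3 rose and 1 fell in Etv5 knockdown. The part of these markers in the levels of Lhx1, Eomes, Shisa6 and Cxcr4 was not tested.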

How the data were processed

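RNA of 16 cultured cell samples was hybridised to Affymetrix mouse expression arrays, with cDNA primed by oligo(dT) and a biotin label, per the labels' protocols. The authors deposited 1 linear intensity per probe set and array, from 1.66 to 71511. Tools listed in the submitters' processing notes are Affymetrix Expression Console 1.1, Partek 6.4, MAS5 and GCRMA. Which of them summarised the deposited intensities, the normalization between arrays and the place of each probe set in its transcript are not given in the sources used here.

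Of 45037 probe sets other than the 64 controls, 34945 carried 1 gene, 932 several and 9160 none in the platform annotation. Only those with 1 gene were named, and 204 had gene IDs that the RefSeq table of GRCm38.p6 did not hold. Values were taken as log2(intensity + 1), which understates changes of dim probe sets. Members were fitted with all 45037 probe sets, and gene lists and likeness with the brightest probe set of each gene by mean log2, kept if it exceeded the array median on 4 arrays or more (11145 genes). The test was that of limma 3.58.1, run in R 4.3.3 (lmFit, eBayes with an intensity trend, 4 groups, no covariates, two-sided, Benjamini-Hochberg over the whole fit, called at an adjusted p under 0.05). Lists were described by counts and medians, with no set test. Permutation tests drew 100000 resamples. The fit was tested on simulated data.

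The members, lists, tests and settings were chosen with earlier results of these data known. The text names all probe sets of the members, the 3 siRNA targets, up to 4 called genes of each list (up to 2 by smallest p where none was called), the 5 genes most like each member, and dim defining markers; clone names were left out, and genes called only with 15 arrays were named after their values were seen. No label gives a batch. Same-numbered replicates did not all deviate together: correlations of their deviations from group means lay between -0.263 and 0.202, and 5 of 24 were above 0.1, of which 4 were between arrays numbered 3. No 2 arrays held identical values. Alternatives were other scalings, pseudocounts, filters, array weights, the groups compared alone, the replicate block and leaving out each array. Promoter windows came from a RefSeq table of GRCm38.p6. Plots used matplotlib 3.10.9 under Python 3.11.15.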

Additional observations from a re-analysis of the deposited data

Results flagged for a closer look

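Among 32 groups of 4 arrays (7 member probe sets and the brightest Etv5 probe set, 4 groups each), 6 held an array whose gap to the nearest other array, as a share of the range of the group, exceeded Dixon's 95% critical value for 4 samples. Chance gives about 1 such group in 20. In Bcl6b knockdown, replicate 1 was the highest array at both Lhx1 probe sets, with shares of 0.871 at 1450428_at and 0.835 at 1421951_at. It was also the highest at both Eomes probe sets, with shares of 0.861 at 1426001_at and 0.837 at 1435172_at. The same array was the lowest of the group for Etv5 1428142_at, with a share of 0.896. In Etv5 knockdown, replicate 3 was the highest array for Etv5 1428142_at, with a share of 0.975, at a log2 level of 10.71 against 9.81 to 9.83 on the other 3. No Shisa6 or Cxcr4 group passed the critical value.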

How the results depend on the processing

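The 35 differences between groups at the 7 probe sets were recomputed under 850 alternatives: 822 kept the direction and side of the threshold or moved by under 1 SD, 7 moved further and 21 changed sign. No call was gained or lost among the 14 of these differences that were tested. The largest differences that changed sign were of Bcl6b knockdown from control, at 0.20 for Lhx1 1421951_at, 0.25 for Eomes 1435172_at and 0.19 for Shisa6 1455512_at. The others that did so lay nearer 0, down to -0.05. Array weights, which needed the gene-by-gene method because the default did not converge, turned Bcl6b knockdown minus control to -0.10 for Lhx1 1421951_at, -0.10 for Eomes 1435172_at and -0.02 for Shisa6 1455512_at, and Pou3f1 knockdown minus control to 0.04 for Lhx1 1421951_at and 0.00 for Cxcr4. Quantile normalization gave 0.03 for Eomes 1435172_at in Pou3f1 knockdown, and median centring gave 0.02 for Shisa6 1441785_at in Etv5 minus Bcl6b knockdown. A pseudocount of 16 gave -0.39 for Shisa6 1455512_at in Etv5 knockdown minus control and -0.58 minus Pou3f1 knockdown, and array weights gave -1.14 for Cxcr4 minus Pou3f1 knockdown. Leaving out each array in turn, Bcl6b knockdown minus control ranged from -0.10 to 0.34 for Lhx1 1421951_at, -0.04 to 0.37 for Eomes 1435172_at and -0.04 to 0.35 for Shisa6 1455512_at, each lowest without Bcl6b knockdown replicate 1. Pou3f1 knockdown minus control ranged from -0.11 to 0.02 for Lhx1 1421951_at, -0.03 to 0.05 for Eomes 1435172_at, -0.08 to 0.00 for Shisa6 1441785_at and -0.14 to 0.03 for Cxcr4.

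The counts of probe sets called were 187, 577 and 202 in Etv5, Bcl6b and Pou3f1 knockdown against control. They were 3007, 6089 and 2653 with array weights, 657, 17 and 1004 with only the groups compared, and 287 (Etv5) and 331 (Pou3f1) at a mean log2 of at least 5. Median centring gave 123 in Etv5 knockdown, and in Bcl6b knockdown a split of 272 higher and 422 lower, against 381 higher and 196 lower. With the replicate block the counts were 126, 330 and 143, none of the tested members was called, and Egr2 was no longer called in Etv5 knockdown (-0.367, limma adjusted p of 0.0651). The pairing rule (every correlation above 0.1) was not met. An array was nearest its own number, among the 4 arrays of another group, in 19 of 48 cases. Whether same-numbered arrays shared a step was not tested. Leaving out each array gave 96 to 1132, 232 to 2170 and 103 to 1381, each highest without Bcl6b knockdown replicate 1.

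Without that array, genes called in the lists numbered 7 of the stem cell subset (Etv5) and 2 (Pou3f1), 7 (Etv5) and 3 (Bcl6b) of the GDNF-responsive genes, 1 (Bcl6b) and 1 (Pou3f1) of the Cxcr4 pathway, 1 (Etv5) and 2 (Pou3f1) of the LIM list, 3 (Pou3f1) of Wnt targets, 4 (Etv5) and 2 (Pou3f1) of differentiating spermatogonia, and 4 (Etv5) and 1 (Pou3f1) of germ cell markers. They were 4 (Etv5, all higher), 2 (Bcl6b) and 4 (Pou3f1) of fibroblast markers, 1 (Etv5) of Sertoli cell, 1 (Pou3f1) of endothelial and 2 (Etv5) of macrophage markers. With the mean over probe sets they were 0 (Bcl6b) and 0 (Pou3f1) of the stem cell subset, 5 (Etv5) and 0 (Bcl6b) of the GDNF-responsive genes, 1 (Bcl6b) of the LIM list, 0 (Etv5) and 2 (Bcl6b) of Wnt targets, and 2 (Bcl6b) of fibroblast markers.

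The correlations with Etv5 over 12 arrays, as deviations from group means, were -0.896 for Lhx1, -0.757 for Eomes, -0.852 for Shisa6 and -0.72 for Cxcr4, with adjusted permutation p of 0.00857, 0.013, 0.00857 and 0.00857, so that all 4 passed where none of the correlations of levels did. The group means used there included Bcl6b knockdown replicate 1, so nothing is read from this change of call. Without Bcl6b knockdown replicate 1 the correlations ranged from 0.229 to 0.325 for Lhx1, 0.277 to 0.372 for Eomes, -0.0524 to 0.219 for Shisa6 and -0.514 to -0.144 for Cxcr4 over levels and deviations. None of them passed the adjusted test, and why that array stood apart was not tested. Depth is not defined for arrays; the dim Shisa6 probe sets limit what can be read of that gene.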
